A study of Mus musculus with 6 samples.

Results

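The 34 genes described here encode the stress sensors of the endoplasmic reticulum (ER), its folding machinery and the proteins that remove or export what is made there. They were listed by symbol, and all 34 were found among the 24411 features of the count tables. RNA-seq was performed on primary microglia (PM), the resident macrophages of the brain, in 2 groups of 3 libraries each. The first group was treated with GSK-J4 (10 μM) and the second with the same dose of GSK-J4 and with LPS (10 ng/ml), both for 4 h. GSK-J4 inhibits the H3K27 demethylase JMJD3, and LPS is the bacterial endotoxin that TLR4 recognizes. Since every library carried GSK-J4, each fold change is that of LPS + GSK-J4 over GSK-J4 without LPS, and PM with no agent or with LPS only were not analysed here. The PM came from pooled whole brains of neonatal ICR mice (postnatal day 3) and were shaken off mixed glial cultures, so other glia can accompany them. The study measured their purity by flow cytometry for CD11b, a surface protein of microglia, and reports most cells as positive. The study calls the libraries of a group biological replicates and names 3 independent PM experiments. The cultures behind each library are not described. The p-values measure the spread between these libraries, and how much of it is technical is not known.

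The unfolded protein response (UPR) matches the folding capacity of the ER to its load of newly made secretory and membrane proteins. The sensors IRE1, PERK and ATF6 span the ER membrane and are held inactive in part by the chaperone BiP. Once active, IRE1 splices the mRNA of the transcription factor XBP1, PERK phosphorylates the translation factor eIF2α, which favours synthesis of ATF4, and ATF6 is cut in the Golgi to release a transcription factor. Cleaved ATF6 and spliced XBP1 act on genes of chaperones, of ER-associated degradation (ERAD) and of export, many of which carry an ER stress response element (ERSE) near their start. Macrophages and microglia that secrete cytokines place such a load on the ER. Counts per gene do not show the splicing of Xbp1, the cleavage of ATF6 or phosphorylation.

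Promoters of 29 of the 34 genes were in a RefSeq table (GRCm38.p6, 250 bases before to 50 after the start, 31 promoters), and Atf6, Hspa13, Hyou1, Manf and Derl1 had none. The ERSE was searched as CCAAT with CCACG 9 bases on, ERSE-II as ATTGG with CCACG 1 base on, and the UPR element as TGACGTGG, each on both strands. The ERSE was found for 9 of the 29 genes (Calr, Canx, Creld2, Derl3, Dnajc3, Hsp90b1, Hspa5, Pdia6 and Syvn1), a share of 31.0%, and in 0.119% of all 32851 promoters of the table. ERSE-II was found for Dnajb11 and Herpud1 (6.90% of the 29 genes, 0.0365% of all promoters) and the UPR element for Sec24d (3.45% and 0.676%). Together 12 of the 29 genes (41.4%) held at least 1 of these motifs, against 0.822% of all promoters, and no listed gene held 2 kinds. The elements were defined on promoters of such genes, so this share describes the list and is not a result of the treatment.

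The 250 bases upstream of the start are shown for the 3 genes with a match and the smallest p in the comparison described next, the chaperones Hspa5 (BiP) and Hsp90b1 (GRP94) and the disulfide isomerase Pdia6. Capitals mark the ends of each ERSE, which read CCAAT and CCACG on the strand of the gene, or CGTGG and ATTGG where the element lies on the opposite strand.
Hspa5, chr2:34771840-34772089 (+): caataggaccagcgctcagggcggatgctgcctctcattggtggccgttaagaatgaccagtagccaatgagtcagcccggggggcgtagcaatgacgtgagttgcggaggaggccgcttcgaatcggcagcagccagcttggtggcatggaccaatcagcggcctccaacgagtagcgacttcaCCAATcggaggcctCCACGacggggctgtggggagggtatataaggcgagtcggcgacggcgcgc
Hsp90b1, chr10:86705445-86705694 (-): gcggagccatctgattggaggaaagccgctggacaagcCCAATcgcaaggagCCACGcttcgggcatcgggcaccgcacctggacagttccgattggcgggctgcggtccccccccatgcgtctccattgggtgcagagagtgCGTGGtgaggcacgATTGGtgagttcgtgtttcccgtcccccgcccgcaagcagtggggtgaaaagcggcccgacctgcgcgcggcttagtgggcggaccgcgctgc
Pdia6, chr12:17266339-17266588 (+): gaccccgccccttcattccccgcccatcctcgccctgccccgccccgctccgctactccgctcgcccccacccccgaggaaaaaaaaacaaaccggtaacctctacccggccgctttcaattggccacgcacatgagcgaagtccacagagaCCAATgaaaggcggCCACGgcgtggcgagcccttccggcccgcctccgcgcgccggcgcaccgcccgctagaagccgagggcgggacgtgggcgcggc
Counted from the RefSeq start of the gene, the ERSE of Hspa5 lay at -65 to -47 and that of Pdia6 at -98 to -80. Hsp90b1 held 2 of them, at -212 to -194 and, on the opposite strand, at -107 to -89. Of these genes with the same element, Hspa5 had a log2 fold change of 0.68, Pdia6 of 0.31 and Hsp90b1 of -0.36, and the latter pair did not pass the test below. Over the 11 tested genes with a motif the median log2 fold change was 0.09 (range -0.36 to 0.68), and over the 17 with a promoter in the table and no motif it was 0.07 (range -0.57 to 0.62). The outermost start in the GENCODE annotation lay upstream of the RefSeq start for all 3 printed genes, so the end of each printed stretch, for Hspa5 with its ERSE, falls within the GENCODE bounds of the gene. A match of letters is not a measured binding site.

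On the strand set by the directional kit, each library held from 2597505 to 3472716 counts on genes. The ribosomal precursor Rn45s took 25.6% ± 5.88 of them under GSK-J4 and 47.1% ± 1.15 under LPS + GSK-J4 (SD, n = 3, exact permutation p = 0.1, the smallest that 3 against 3 allows). Without Rn45s, Mir6236 and Lars2, 1374377 to 2443344 counts remained. Replicate 3 of both groups stood apart, with a chi-square per degree of freedom of 5.81 to 12.5 against the other replicates of its group and of 2.12 and 2.32 between replicates 1 and 2. Levels are given as CPM, the count scaled to a common library size after TMM. Microglial markers were abundant in every library (12 of 12 tested, summed level 3399 to 3503 CPM in GSK-J4 and 2677 to 2787 CPM in LPS + GSK-J4). Of these, Cx3cr1 and Csf1r were lower at adjusted p of at most 0.01, where 5.46% of all genes tested were. Sall1 went the other way, the 1 positive value of the 12 (log2 fold change 1.08, edgeR adjusted p = 0.0206). Higher at this adjusted p were 8.42% of all genes tested. Astrocyte markers summed to 62.1 to 66.0 and 151 to 181 CPM (4 of 9 tested higher), those of the oligodendrocyte lineage to 182 to 212 and 352 to 402 CPM (4 of 6) and mesenchymal markers to 104 to 314 and 201 to 504 CPM (1 of 7). Neuronal markers summed to 6.60 to 7.08 and 14.9 to 16.8 CPM (1 of 1 tested higher) and endothelial markers to 6.73 to 10.6 and 9.50 to 12.1 CPM (0 of 1), with Cldn5 at 0 in every library. The part of these cells in the differences below was not tested, and in bulk RNA fewer cells of a type and less RNA per cell cannot be told apart.

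For 30 of 33 UPR genes the 95% interval of the difference between LPS + GSK-J4 and GSK-J4 did not reach 2-fold in either direction. Hspa5, which encodes the chaperone BiP, rose 1.61-fold, and it was the 1 gene of 33 that passed an adjusted p of 0.01. Over the 33 genes tested, the median log2 fold change was 0.08, against -0.00064 for all 10133 genes tested, and the median size without sign was 0.252 against 0.317. These sizes were not matched for count depth between the 33 genes and all genes. The median log2 fold change of the 33 genes was 0.15 without GSK-J4 replicate 1 and 0.0487 without LPS + GSK-J4 replicate 3. The largest values, from Edem2 at -0.57 to Hspa5 at 0.68, lay inside the threshold of 1.5 used in the study. By role, the 4 translocation and export genes and the 4 disulfide isomerases had positive values and the 7 tested ERAD genes negative ones, of which only those of Pdia3 and Syvn1 turned in an alternative. The further lists of such genes described below held both signs. Positive and negative values numbered 8 and 9 for other ERAD genes and 16 and 14 for other translocation, glycosylation and COPII genes. For other folding and redox genes they numbered 12 and 8.

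These values come from edgeR's quasi-likelihood test on counts scaled by TMM, with Benjamini-Hochberg adjustment over the 10133 genes left by a filter on low counts. At an adjusted p of at most 0.01, 1 UPR gene was higher in LPS + GSK-J4, where 8.42% of all genes tested were, and 0 were lower, where 5.46% of all genes were. Lower at an unadjusted p under 0.05 were 3 UPR genes (15.5% of all genes tested), and higher were 7 (19.3%), and DESeq2's Wald test called 1 lower (Edem1). Without LPS + GSK-J4 replicate 1 the counts were 2 higher and 1 lower, and without LPS + GSK-J4 replicate 2 they were 0 and 0. With the threshold of 1.5 on the log2 scale in addition, 0 UPR genes were up-regulated and 0 down-regulated, against 2.95% and 0.809% of all genes. At the looser adjusted p of 0.05 the genes higher were Hspa5 and Sec61b (13.7% of all genes tested) and the genes lower Edem1 and Edem2 (9.91%). The LPS + GSK-J4 libraries all lay above those of GSK-J4 for 8 UPR genes (19.8% of all genes) and all below for 4 (18.4%), Manf among the 8 only by a near tie, and for the other 21 the groups overlapped.

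On the log2 scale, the 95% interval lay within 1 in either direction for those 30 genes (64.6% of all genes tested) and within 1.5 for all 33 (85.1%). The exceptions at 1 were Creld2, Manf and Sec61b, each with an upper end above 1. The counts behind these values ran from 14 to 1473 per gene and library with a median of 149. The shares of all genes tested were not matched for this depth. Derl3, an ERAD channel protein of secretory tissues, had 0 counts in every library, which allows up to 3 counts or 0.673 to 1.24 CPM depending on the library (counting error only), and was not tested.

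**Figure D1:**
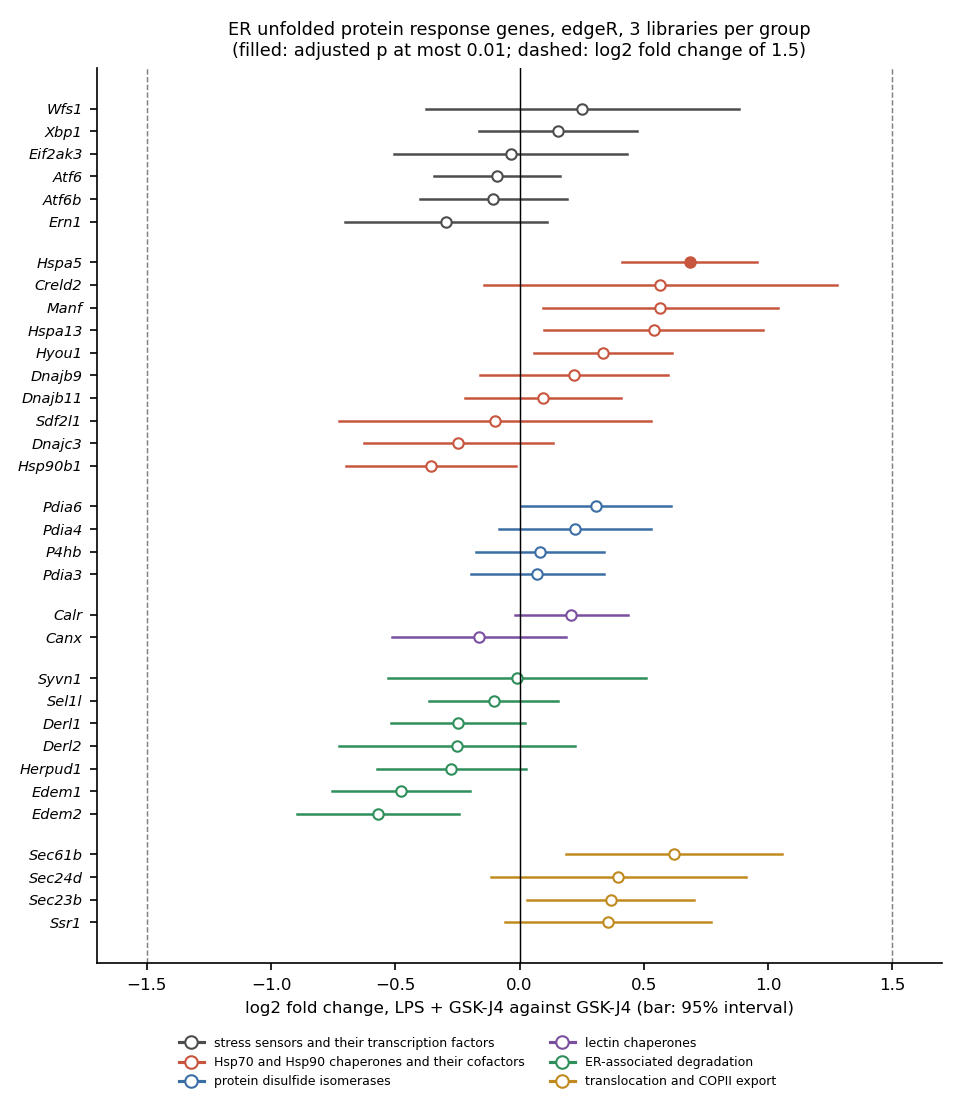
Log2 fold change of LPS + GSK-J4 against GSK-J4 (horizontal axis) for the 33 tested UPR genes, grouped by role and ordered by value, with 95% intervals from edgeR over 3 libraries per group. The filled point is Hspa5 at 0.68, the 1 gene with an adjusted p of at most 0.01, and every interval lies between the dashed lines at -1.5 and 1.5.

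The sensors and their transcription factors did not pass the test in either direction, and in all 6 of them the groups overlapped. Their log2 fold changes ran from -0.30 to 0.25 with a median of -0.06, 2 positive and 4 negative. Values are given for every library, in the order of replicates 1, 2 and 3, as TMM-normalized CPM.

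Ern1 encodes IRE1, the kinase and endoribonuclease that splices Xbp1. It was at 26.9, 29.6 and 33.4 CPM in GSK-J4 and at 19.1, 24.8 and 28.9 CPM in LPS + GSK-J4, and the groups overlapped at their upper and lower ends. Its log2 fold change was -0.30 (standard error 0.192, edgeR adjusted p = 0.295). Xbp1, whose spliced mRNA makes the active factor, was at 67.9, 66.7 and 55.0 CPM in GSK-J4 and at 60.1, 82.0 and 69.8 CPM in LPS + GSK-J4. The lowest LPS + GSK-J4 library lay within the range of GSK-J4, and the log2 fold change was 0.15 (standard error 0.15, adjusted p = 0.51), for spliced and unspliced transcripts together.

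Eif2ak3 encodes PERK, the kinase that acts on eIF2α. It was at 19.8, 19.3 and 19.8 CPM in GSK-J4 and at 14.8, 16.4 and 26.4 CPM in LPS + GSK-J4. Replicate 3 of LPS + GSK-J4 was the highest of all 6 libraries while replicates 1 and 2 were the lowest, so that the log2 fold change of -0.04 (standard error 0.222, edgeR adjusted p = 0.932) averages values on both sides. The sign turned when replicate 1 or 2 of LPS + GSK-J4 was left out.

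Atf6 encodes the sensor that is cut in the Golgi, and it had the smallest standard error of these 6 genes. It was at 125, 129 and 112 CPM in GSK-J4 and at 113, 116 and 116 CPM in LPS + GSK-J4, a difference on the log2 scale of -0.09 (standard error 0.12, adjusted p = 0.639, 95% interval -0.35 to 0.16). Its paralog Atf6b, which encodes a weaker activator, was at 72.7, 63.5 and 81.8 CPM and at 62.8, 66.8 and 72.3 CPM, a difference on the log2 scale of -0.10 (adjusted p = 0.647). Wfs1 encodes wolframin, an ER membrane protein that restrains ATF6 signalling. It was low, at 11.1, 6.73 and 14.3 CPM and at 10.1, 10.7 and 16.5 CPM, and its log2 fold change of 0.25 (adjusted p = 0.594) was smaller than its standard error of 0.297 and turned to -0.0209 without GSK-J4 replicate 2.

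The Hsp70 and Hsp90 chaperones of the ER lumen and their cofactors held the 1 gene that passed. Of these 10 genes Hspa5 was higher and 0 were lower at an adjusted p of at most 0.01, where 8.42% and 5.46% of all genes tested were. In 4 of the 10 genes (Hspa5, Hspa13, Hyou1 and Manf) the LPS + GSK-J4 libraries all lay above those of GSK-J4, Manf only by a near tie. Of all genes tested 19.8% did so. The median log2 fold change of the 10 genes was 0.28 (range -0.36 to 0.68), with 7 positive and 3 negative values. Beyond Hspa5 and the sensors, the genes given by library below were chosen after their values were seen.

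Hspa5 encodes BiP, the most abundant Hsp70 of the ER, which binds unfolded chains and keeps the sensors inactive. The gene lies on mm10 chromosome 2, 34771970 to 34777547 on the plus strand in the GENCODE annotation. It was at 194, 161 and 143 CPM in GSK-J4 and at 265, 287 and 252 CPM in LPS + GSK-J4. The groups were apart, with the lowest value under LPS + GSK-J4 above the highest under GSK-J4. The means were 166 ± 26.1 and 268 ± 17.4 CPM (SD, n = 3), or 0.68 on the log2 scale (standard error 0.128, 95% interval 0.41 to 0.96, edgeR adjusted p = 0.000965). Without LPS + GSK-J4 replicate 2 the log2 fold change was 0.63 and the adjusted p 0.0122, and over all 15 alternatives the log2 fold change ran from 0.59 to 0.81 and the adjusted p from 1.02e-07 to 0.0122. With Rn45s, Mir6236 and Lars2 removed before scaling it was 0.69 (adjusted p = 0.000977), and without replicate 3 of both groups 0.64 (adjusted p = 2.84e-05).

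Hsp90b1 encodes GRP94, the Hsp90 of the ER, whose clients include Toll-like receptors and integrins. It was at 142, 124 and 97.9 CPM in GSK-J4 and at 108, 101 and 75.2 CPM in LPS + GSK-J4. The groups overlapped, with replicate 3 the lowest library of each, and the log2 fold change was -0.36 (standard error 0.161, adjusted p = 0.125). The counts of Hspa5 were 1.37, 1.30 and 1.46 times those of Hsp90b1 in the GSK-J4 libraries and 2.45, 2.83 and 3.36 times in the LPS + GSK-J4 libraries. This ratio within a library does not depend on its scaling, it did not overlap between the groups, and it was chosen after the values of both genes were seen, so no test is given.

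Hyou1 encodes ORP150, a large Hsp70 that acts as a nucleotide exchange factor of BiP. It was at 114, 107 and 108 CPM in GSK-J4 and at 126, 128 and 162 CPM in LPS + GSK-J4, without overlap (log2 fold change 0.34, adjusted p = 0.0742). Hspa13, a smaller Hsp70-like protein of the ER, was at 19.3, 18.6 and 11.7 CPM and at 23.8, 25.9 and 24.0 CPM (log2 fold change 0.54, adjusted p = 0.0727). Manf, a secreted ER stress protein that binds BiP, was at 14.9, 11.2 and 11.7 CPM and at 19.1, 22.1 and 14.9 CPM (log2 fold change 0.57, adjusted p = 0.0789). Its groups were apart by less than 1 count, with GSK-J4 replicate 1 at 14.8639 CPM (63 counts) and LPS + GSK-J4 replicate 3 at 14.8662 CPM (36 counts). Replicate 3 was apart from the other replicates of its group in both Hsp70 genes, as the lowest GSK-J4 library of Hspa13 and the highest LPS + GSK-J4 library of Hyou1.

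The remaining chaperone cofactors showed no common direction. Dnajb9 (ERdj4), Dnajb11 (ERdj3) and Dnajc3 (P58IPK), J-domain partners of BiP, lay at 0.22, 0.09 and -0.25 on the log2 scale, with adjusted p from 0.363 to 0.702. Creld2, an ER stress-induced protein with disulfide isomerase activity, was near the lower end of what was counted at 4.75 ± 1.47 and 6.88 ± 1.56 CPM (SD, n = 3). Its 14 to 21 counts per library gave a wide interval, from -0.14 to 1.28 around 0.57. Sdf2l1, a partner of the ERdj3 complex, was at 10.5 ± 3.55 and 9.57 ± 2.06 CPM, and its log2 fold change of -0.10 turned positive without GSK-J4 replicate 3, LPS + GSK-J4 replicate 1 or replicate 3 of both groups.

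**Figure D2:**
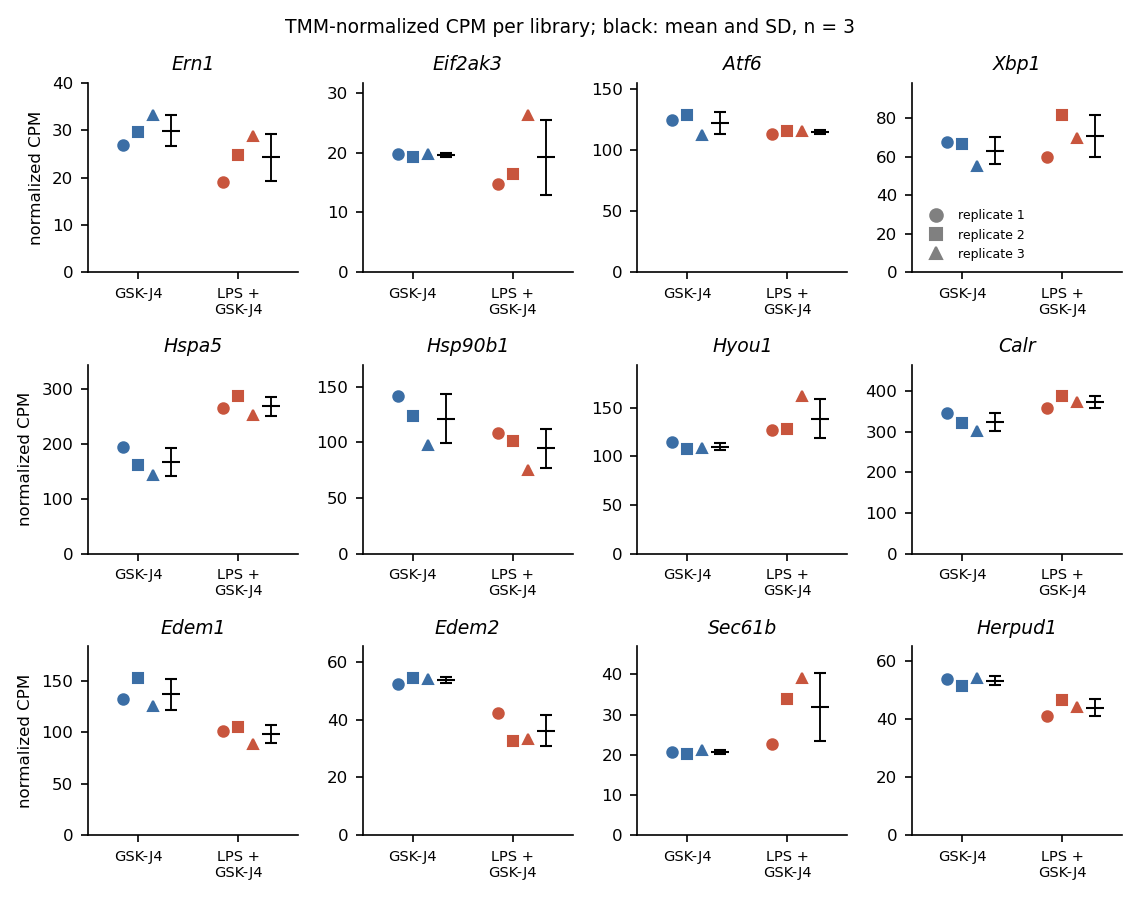
TMM-normalized CPM of 12 UPR genes in each of the 6 libraries (vertical axis from 0), with circles, squares and triangles for replicates 1, 2 and 3 and black bars for the mean and SD of 3 libraries. The groups are apart for Hspa5, Hyou1, Calr, Edem1, Edem2, Sec61b and Herpud1 and overlap for Ern1, Eif2ak3, Atf6, Xbp1 and Hsp90b1. The panel is a selection. Of all 33 tested UPR genes, LPS + GSK-J4 lay wholly above GSK-J4 for 8 and wholly below for 4. Of all genes tested 19.8% and 18.4% did so.

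The disulfide isomerases, which form and shuffle the disulfide bonds of folding proteins, held no gene that passed. All 4 had positive values and groups that overlapped, with log2 fold changes of 0.31 for Pdia6 (adjusted p = 0.133), 0.22 for Pdia4, 0.08 for P4hb and 0.07 for Pdia3. Pdia6, which also acts on the IRE1 sensor, averaged 80.5 ± 10.2 CPM under GSK-J4 and 100.2 ± 12.9 CPM under LPS + GSK-J4 (SD, n = 3). Pdia3, the partner of the lectin chaperones, and P4hb, the founding member of the family, had 95% intervals of -0.19 to 0.34 and of -0.17 to 0.34, and the sign of Pdia3 turned without GSK-J4 replicate 3.

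The lectin chaperones hold glycoproteins until they are folded, calreticulin (Calr) in the lumen and calnexin (Canx) in the membrane. Calr was at 348, 321 and 302 CPM in GSK-J4 and at 359, 388 and 375 CPM in LPS + GSK-J4. The nearest libraries, 348 and 359 CPM, were close without overlap, and the log2 fold change of 0.21 did not pass (standard error 0.108, adjusted p = 0.184). Canx was at 58.5 ± 2.65 and 52.1 ± 11.98 CPM (SD, n = 3), a difference on the log2 scale of -0.16 (adjusted p = 0.526) that was 0.0194 without replicate 3 of both groups.

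Of the 7 tested ERAD genes 0 passed an adjusted p of 0.01 in either direction, where 8.42% of all genes were higher and 5.46% lower. Lower at an unadjusted p under 0.05 were 2 (Edem1 and Edem2), where 15.5% of all genes were. The log2 fold changes of the 7 genes were all negative, with a median of -0.25 and a range from -0.57 to -0.01. In 4 of these genes (Edem1, Edem2, Herpud1 and Derl1) the LPS + GSK-J4 libraries all lay below those of GSK-J4. Of all genes tested 18.4% did so. Edem1 and Edem2 act on the mannose of glycoproteins that fail to fold and so mark them for degradation.

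Edem2 was at 52.6, 54.8 and 54.3 CPM in GSK-J4 and at 42.5, 32.8 and 33.4 CPM in LPS + GSK-J4. The GSK-J4 libraries lay close together, and the highest LPS + GSK-J4 library was replicate 1. The log2 fold change was -0.57 (standard error 0.153, 95% interval -0.90 to -0.24, edgeR adjusted p = 0.013), and without LPS + GSK-J4 replicate 1 it was -0.70 (adjusted p = 0.00675). Edem1 was at 132, 154 and 125 CPM in GSK-J4 and at 101, 106 and 88.4 CPM in LPS + GSK-J4, again without overlap, with a difference of -0.48 on the log2 scale (standard error 0.13, 95% interval -0.75 to -0.20, adjusted p = 0.0142). Both genes lay close to the threshold and crossed it in 4 of the 15 alternatives each, while the adjusted p rose to at most 0.101 for Edem1 and 0.0718 for Edem2.

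The other ERAD genes were further from the threshold. Herpud1, which recruits the ubiquitin ligase complex, was at 53.8, 51.4 and 54.3 CPM in GSK-J4 and at 41.0, 46.6 and 44.2 CPM in LPS + GSK-J4 (log2 fold change -0.27, adjusted p = 0.182). Derl1 and Derl2 encode derlins of the exit channel and were both at -0.25 on the log2 scale (adjusted p = 0.179 and 0.467). Syvn1 encodes the ubiquitin ligase HRD1 and Sel1l its scaffold. Their values, -0.01 for Syvn1 and -0.10 for Sel1l, were smaller than their standard errors of 0.245 and 0.123, and the sign of Syvn1 turned with unstranded counts and without GSK-J4 replicate 2 or 3 or LPS + GSK-J4 replicate 1 or 2.

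The 4 genes of translocation and COPII export did not pass at an adjusted p of 0.01, and their log2 fold changes of 0.36 to 0.62 (median 0.38) kept their sign in all 15 alternatives. Sec61b, a subunit of the channel through which new chains enter the ER, was at 20.8, 20.2 and 21.3 CPM in GSK-J4 and at 22.6, 33.96 and 39.2 CPM in LPS + GSK-J4. The GSK-J4 libraries were nearly equal, while LPS + GSK-J4 replicate 1 lay close to them and replicates 2 and 3 well above. Its log2 fold change of 0.62 (standard error 0.204, 95% interval 0.19 to 1.06) had an adjusted p of 0.0366, which was 0.00594 without LPS + GSK-J4 replicate 1. Ssr1, a subunit of the translocon-associated complex, and Sec23b, of the inner COPII coat, did not overlap between groups, at 15.5 ± 1.93 and 20.0 ± 0.997 CPM and at 35.6 ± 3.84 and 45.7 ± 4.70 CPM (SD, n = 3). Their adjusted p of 0.212 and 0.109 missed the threshold, as did that of Sec24d, a cargo adaptor of the coat (log2 fold change 0.40, adjusted p = 0.264).

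Per kilobase of exon, a scale on which genes can be compared, the folding machinery of PM was led by Calr at 148 ± 10.4 in GSK-J4 and 171 ± 6.64 normalized CPM per kb in LPS + GSK-J4 (SD, n = 3). Pdia3, P4hb, Hspa5 and Hsp90b1 followed in GSK-J4 at 62.7, 59.9, 44.3 and 42.9 CPM per kb. In LPS + GSK-J4 the mean of Hspa5 was 71.3 CPM per kb, above those of Pdia3 and P4hb at 66.0 and 63.5, and that of Hsp90b1 was 33.6. The sensors lay lower, with Ern1 at 3.67 and Eif2ak3 at 4.06 CPM per kb in GSK-J4, and Atf6 and Xbp1 at 16.9 and 26.5. Together the 33 genes summed to 2240 to 2495 CPM in the GSK-J4 libraries and to 2467 to 2593 CPM in the LPS + GSK-J4 libraries, ranges that overlapped.

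**Figure D3:**
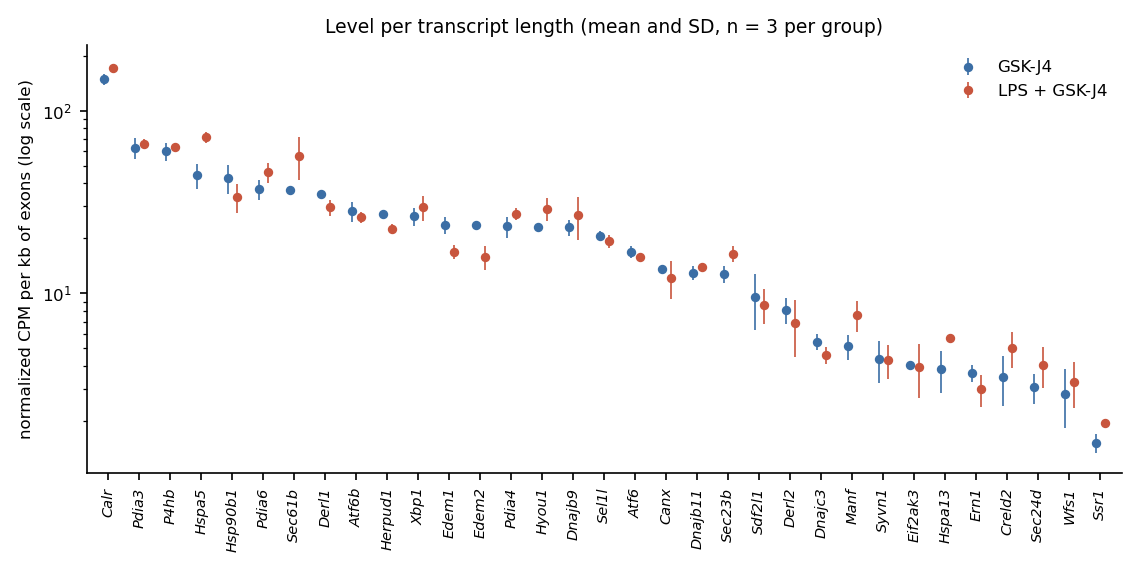
Level of each tested UPR gene as TMM-normalized CPM per kb of exon (vertical log axis), as mean and SD of 3 GSK-J4 libraries and of 3 LPS + GSK-J4 libraries, ordered by the GSK-J4 level. Calr is highest at 148 and Ssr1 lowest at 1.52 in GSK-J4, and Hspa5 goes from 44.3 to 71.3.

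The PERK branch also acts through ATF4 and its target genes. A list of 16 genes of this branch or linked to it, not all of them ATF4 targets, was compared with the same test. Here 2 genes rose and 5 fell at an adjusted p of at most 0.01, where 8.42% and 5.46% of all genes tested did so. Ppp1r15a, whose product GADD34 brings a phosphatase to eIF2α, was at 188, 201 and 206 CPM in GSK-J4 and at 759, 811 and 863 CPM in LPS + GSK-J4 (log2 fold change 2.03, edgeR adjusted p = 1.24e-09). Bcl2l11, which encodes the cell death protein BIM, rose with a log2 fold change of 1.08 (adjusted p = 1.16e-05). Atf4 itself was at 1360, 1454 and 1371 CPM in GSK-J4 and at 498, 508 and 474 CPM in LPS + GSK-J4, with no overlap and a log2 fold change of -1.4999 (adjusted p = 1.99e-08), just short of the threshold of 1.5 (from -1.55 to -1.47 over 15 alternatives).

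Ero1l, which encodes an oxidase that recharges the disulfide isomerases, fell with a log2 fold change of -1.15 (adjusted p = 7.18e-05), and Cebpg and Trib3, a dimer partner of ATF4 and a pseudokinase downstream of it, with -0.84 each (adjusted p = 0.000283 and 0.000544). Ddit3 encodes CHOP, the transcription factor of prolonged ER stress, and was at 71.3, 64.0 and 82.9 CPM in GSK-J4 and at 36.3, 40.8 and 53.3 CPM in LPS + GSK-J4. The groups did not overlap, and the log2 fold change was -0.74 (adjusted p = 0.00381). The call of Ddit3 was lost when GSK-J4 replicate 1 or 3 or LPS + GSK-J4 replicate 1 or 2 was left out, with adjusted p from 0.0119 to 0.0307.

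In 4 further lists of the ER machinery 0 genes passed edgeR's test at an adjusted p of 0.01 in either direction. Of all genes tested 8.42% were higher and 5.46% lower at this threshold. Over all 94 tested genes of the 5 lists, DESeq2's Wald test called 2 higher and 5 lower, as many as edgeR. Of 20 tested folding and redox genes, 4 were higher and 1 lower at an unadjusted p under 0.05, against 19.3% and 15.5% of all genes, and of 17 ERAD genes 1 and 1. Of 30 translocation, glycosylation and COPII genes 5 were higher and 2 lower by the same measure, and of 11 genes of ATF6 processing and IRE1 partners 0 and 2. Their median log2 fold changes were 0.10, -0.03, 0.06 and 0.03. Among these other ERAD genes 8 values were positive and 9 negative, and among the other translocation, glycosylation and COPII genes 16 and 14.

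**Figure D4:**
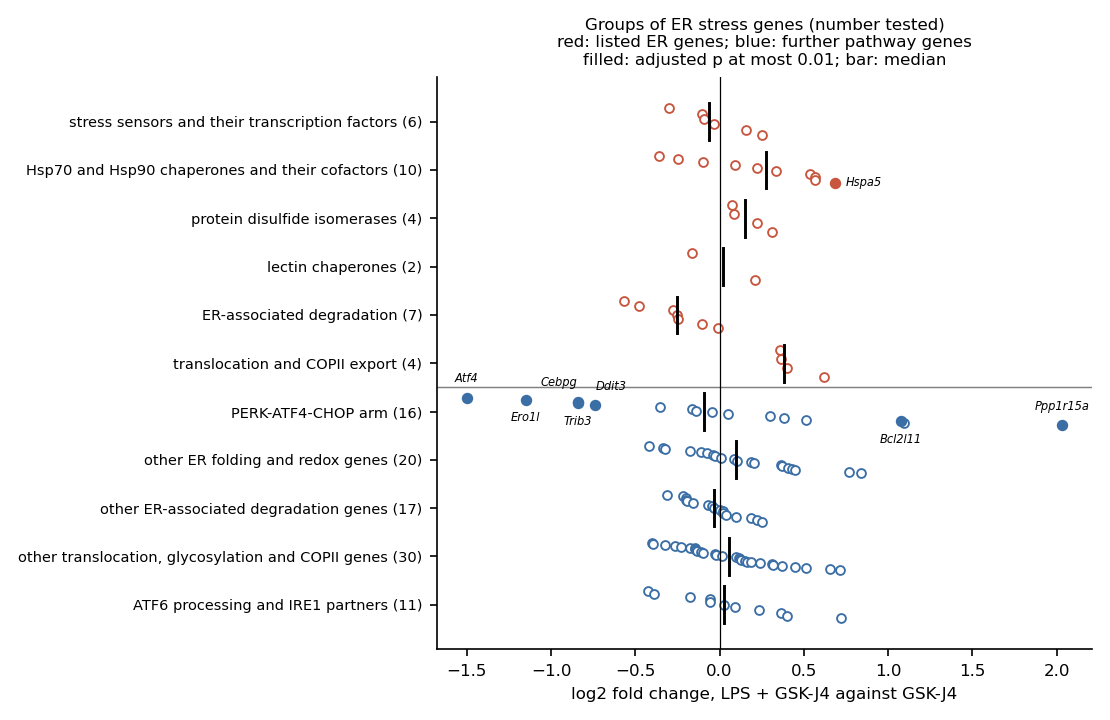
Log2 fold change of LPS + GSK-J4 against GSK-J4 (horizontal axis) for the UPR genes by role (red) and for 5 lists of further pathway genes (blue), each circle a gene, filled at an adjusted p of at most 0.01, with black bars for list medians. The filled points are Hspa5 among the UPR genes and 7 genes of the PERK-ATF4-CHOP list, from Atf4 at -1.4999 to Ppp1r15a at 2.03.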

How the data were processed

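Raw counts of fragments per gene were deposited by the authors for each library, who, per the labels and the study's methods, trimmed reads with Trimmomatic 0.33, aligned them to mm10 with STAR 2.5.1 and applied no normalization to these counts. CASAVA 1.8.2 and DESeq2 also stand in the submitters' processing notes. The gene annotation used for counting is not given in the sources used here. STAR counts fragments that map to 1 place and 1 gene, which undercounts genes that have near-identical copies. The reverse-strand column was used, since the other strand held 0.966 to 1.38% of the assigned fragments. Tallies of fragments assigned to no gene, 74.0 to 78.0% of the column totals, were left out.

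The titles in the labels gave the groups and replicate numbers. Counts were filtered with filterByExpr (minimum count 10, minimum total 15), and the genes left were then scaled by TMM. They were fitted with edgeR 4.0.16 (glmQLFit, robust, and glmQLFTest, no covariates) in R 4.3.3 with limma 3.58.1, with Benjamini-Hochberg adjustment of the p-values over 10133 genes. The common biological coefficient of variation came to 0.133. This fit was tested on simulated data. The 34 genes and the lists of further genes and markers were chosen with earlier results of these data known, so lists are described by counts and medians without a test. Library values are given for the UPR genes past an adjusted p of 0.01, for the sensors and for Hspa5, and genes added after their values were seen are named as such. Of each further list, up to 4 genes past the threshold with the smallest p in each direction are named, and Ddit3 and Atf4 in any case. Protein ends, also part of this rule, are not given here. Exon lengths and positions are from the GENCODE basic annotation of mm10 and promoters from RefSeq. The alternatives were DESeq2 1.42.0, its size factors, upper-quartile scaling, 2 other filters, unstranded counts, removal of Rn45s, Mir6236 and Lars2, a replicate block, an adjusted p of 0.05 and omission of libraries. Python 3.11.15 served for tables (pandas 2.3.3, numpy 2.4.6), the permutation test (scipy 1.17.1) and plots (matplotlib 3.10.9).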

Additional observations from a re-analysis of the deposited data

How the results depend on the processing

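Over 15 alternatives for each named gene, 571 values kept their direction and side of the threshold, 13 reversed, 11 passed it only under the alternative and 5 no longer did, and the cause was not tested. The count of UPR genes lower at an adjusted p of at most 0.01 (0) was 1 with DESeq2's Wald test (Edem1), 2 without the filter on low counts (Edem1 and Edem2), 1 with unstranded counts (Edem2), 1 without replicate 3 of both groups (Edem1), 2 at an adjusted p of 0.05, and from 0 to 1 without single libraries (1 without LPS + GSK-J4 replicate 1, Edem2). The count of UPR genes higher (1) was 2 at an adjusted p of 0.05 and from 0 to 2 without single libraries, 0 without LPS + GSK-J4 replicate 2 (Hspa5 lost) and 2 without LPS + GSK-J4 replicate 1 (Sec61b gained). Further pathway genes higher (2) numbered 6 at an adjusted p of 0.05. The median log2 fold change of the UPR genes (0.08) was 0.0304 without the filter on low counts and ran from 0.0487 to 0.15 without single libraries. Reversed values lay near 0. Sdf2l1 was at 0.16 and Canx at 0.0194 without replicate 3 of both groups, and Syvn1 at 0.0071 with unstranded counts. Without single libraries the log2 fold changes ran from -0.33 to 0.12 for Eif2ak3, from -0.0209 to 0.48 for Wfs1, from -0.35 to 0.12 for Sdf2l1, from -0.0204 to 0.17 for Pdia3 and from -0.22 to 0.12 for Syvn1.

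With the replicate number as a block, 2 UPR genes were higher (Hspa5 and Sec61b) and 3 lower (Hsp90b1, Edem1 and Edem2), and of the further pathway genes 4 were higher and 8 lower. The labels do not say whether a number marks a shared preparation, so whether these libraries are paired is not known. Deviations from the group means correlated at -0.0102, 0.117 and 0.295 between libraries of the same number and from -0.290 to 0.243 between different numbers, and not every library correlated best with its own number. Gene by gene, log2 fold changes shifted from the main fit by a median of -0.0473 with DESeq2's Wald test and of -0.0540 without the filter on low counts. The median shift was less than 0.01 in size with DESeq2's size factors, upper-quartile scaling, unstranded counts or removal of Rn45s, Mir6236 and Lars2. The depth limits the low genes most, such as Creld2 with 14 to 21 counts per library.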
